A study of Mus musculus with 6 samples.

Results

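The mitochondrial genome of the mouse carries 37 genes, and all 37 were present in the table, chosen as the rows whose symbol begins with mt- among 54242 gene symbols. They comprise 13 protein-coding genes, grouped by their symbols into 7 of complex I, 1 of complex III, 3 of complex IV and 2 of complex V, together with 2 rRNA genes and 22 tRNA genes. RNA came from L4-6 dorsal root ganglia, which house the somata of sensory neurons, of male C57bl/6 mice aged 8-10 weeks. One group of mice had followed an intermittent fasting diet for 10 days (fasted, 3 libraries) and the other had eaten ad libitum (fed, 3 libraries), and both carry no stated genetic change. In both groups enzymes freed the cells, a BSA gradient enriched the neurons, and a stranded mRNA kit, which picks RNA with a poly(A) tail, gave the libraries. Labels leave unsaid if each library came from 1 mouse or several, and p-values therefore reflect only library-to-library spread, possibly technical.

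Mitochondria keep a small circular genome that is copied into long transcripts from both strands. The tRNAs lie between most of the other genes, and cutting them out releases the mRNAs and rRNAs. The mRNAs code for core subunits of the respiratory chain and of ATP synthase, and all other subunits of these complexes come from nuclear genes. Sensory neurons, with their long axons, draw much of their ATP from these complexes. Most mitochondrial mRNAs end in a short poly(A) tail, while mature tRNAs are too short for standard RNA-seq libraries, so the kit used here captures mRNAs far better than tRNAs.

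The sequences below show why reads from 7 of the 13 mRNAs could be placed in more than 1 gene. A stretch of nuclear chromosome 1, from 24611535 to 24616197 on the minus strand (GRCm38), is annotated as 7 unprocessed pseudogenes that repeat mitochondrial genes almost letter for letter. Between 97.2% and 100% of the 31-base words of each pseudogene occurred in a mitochondrial transcript. The first 120 bases of mt-Nd3 (chrM:9459-9578, plus strand) and of its copy Gm28438 (chr1:24613000-24613119, minus strand) are given with the base that differs in capitals. The difference is T3C, counted from 1 at the start of mt-Nd3, and it was the single mismatch over 345 aligned bases.
mt-Nd3: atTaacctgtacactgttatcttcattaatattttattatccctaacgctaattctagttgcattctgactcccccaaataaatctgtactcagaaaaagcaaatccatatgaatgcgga
Gm28438: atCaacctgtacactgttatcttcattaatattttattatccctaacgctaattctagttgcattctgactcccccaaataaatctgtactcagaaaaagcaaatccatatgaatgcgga
Gm10222 (mt-Nd4l), Gm28437 (mt-Co3), Gm10925 (mt-Atp6), Gm28661 (mt-Co2) and Gm28439 (the first part of mt-Nd4) had 0 mismatches to the gene in brackets, and Gm29216 had 6 to mt-Co1 over 492 aligned bases. Mitochondrial genes also overlap each other. The end of mt-Atp8 and the start of mt-Atp6 share 43 bases and those of mt-Nd4l and mt-Nd4 share 7, shown in capitals with 20 bases on either side (chrM:7907-7989 and chrM:10147-10193, plus strand).
mt-Atp8 and mt-Atp6: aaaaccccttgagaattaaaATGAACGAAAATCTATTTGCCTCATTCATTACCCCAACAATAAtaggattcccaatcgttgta
mt-Nd4l and mt-Nd4: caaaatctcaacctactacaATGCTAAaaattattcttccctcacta

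Mitochondrial mRNA took a smaller share of all transcripts in fasted ganglia. The 13 mRNAs summed to 5.07%, 5.15% and 4.74% of all TPM (a share of transcripts, corrected for their length, that sums to 1000000 in each library) in fasted replicates 1, 2 and 3, against 5.62%, 8.86% and 6.79% in fed replicates 1, 2 and 3. With the 7 nuclear copies added, the shares were 5.76%, 6.06% and 5.70% in fasted libraries, against 6.64%, 9.75% and 7.61% in fed libraries. The groups did not overlap either way. The log2 difference of the sum was -0.48 without and -0.44 with the copies (exact permutation test, two-sided, p = 0.1 for both, the smallest that 3 against 3 can give). In bulk RNA, fewer cells of a mitochondria-rich type and less mitochondrial RNA per cell cannot be told apart.

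Fed replicate 2, which had the highest mitochondrial share, also carried the most skeletal muscle RNA. The 28 muscle markers summed to 336 to 707 TPM in fasted libraries, and to 633 and 802 TPM in fed replicates 1 and 3 but 5328 TPM in fed replicate 2. Ckm, the muscle creatine kinase, stood at 490.0 TPM in that library against 9.07 to 52.2 TPM in the other libraries. The part of muscle RNA in the mitochondrial share was not tested. Without fed replicate 2, the log2 difference of the summed mitochondrial mRNA was -0.31, or -0.28 with the nuclear copies added. Leaving out a library cannot make groups overlap that did not overlap before.

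**Figure D1:**
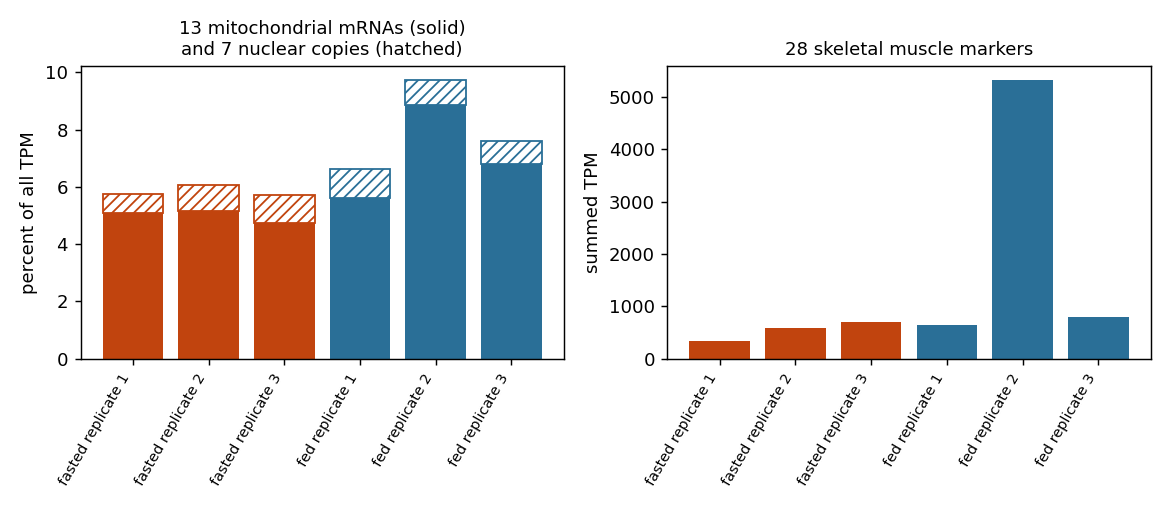
Percent of all TPM from the 13 mitochondrial mRNAs (solid) with that of the 7 nuclear copies stacked on top (hatched), left, and the summed TPM of 28 skeletal muscle markers, right, with 1 bar for each library. The stacked share is 5.70% to 6.06% in fasted and 6.64% to 9.75% in fed libraries, and the muscle sum of 5328 TPM in fed replicate 2 stands apart.

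All 13 mRNAs were lower in fasted libraries, and 0 passed an adjusted p of 0.05 over the 15097 genes averaging 1 TPM or more (limma, Benjamini-Hochberg; adjusted p from 0.41 to 0.52), where 0.00662% of genes passed. Without adjustment, 11 of 13 were lower with p under 0.05 (limma), against 3.22% of all tested genes. The 13 largely varied together over the libraries, so such counts are not separate results. Fasted values lay wholly below fed values for 10 of the 13, against 5.07% of all tested genes. The median log2 fold change of the 13 was -0.49, on the log2(TPM + 1) scale, beside 0.03 for all tested genes. Besides the 13 mRNAs, both rRNAs passed the limit of 1 TPM, and 0 of the 22 tRNAs did.

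**Figure D2:**
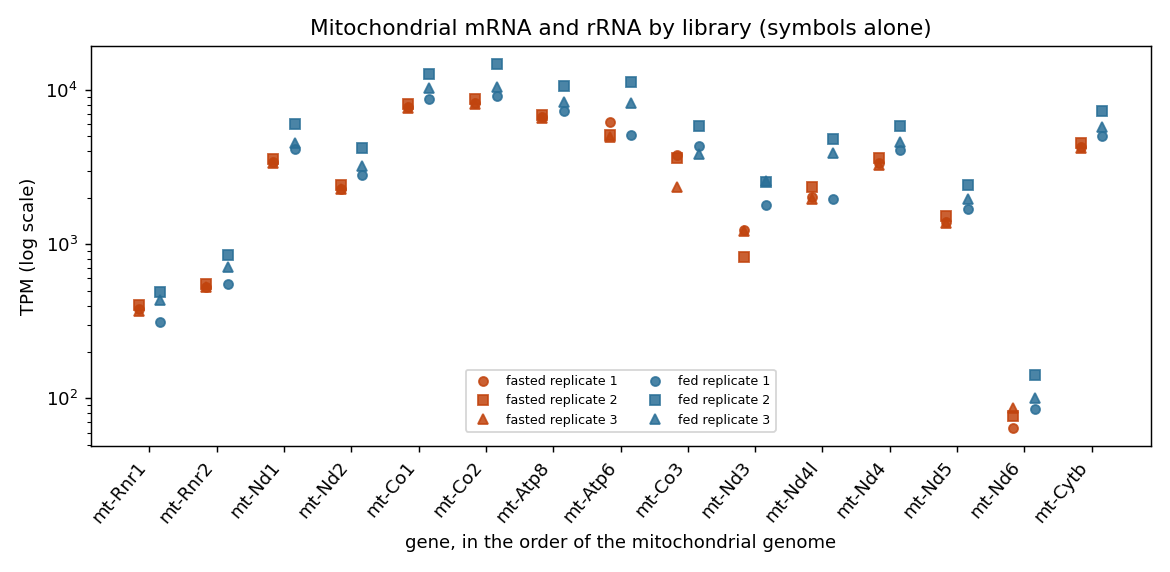
TPM on a log scale for the 13 mitochondrial mRNAs and 2 rRNAs in genome order, by symbol alone, with 1 point for each library (fasted left, fed right). Fasted libraries cluster tightly for most genes, from 3360.3 to 3569 TPM for mt-Nd1, while mt-Atp6, mt-Co3, mt-Nd3, mt-Nd4l and mt-Nd6 scatter.

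Complex I, the NADH dehydrogenase that feeds electrons into the chain, has 7 mitochondrial subunits. mt-Nd1 (chrM:2751-3707), a membrane subunit next to the quinone site, was at 3398, 3569 and 3360.3 TPM in fasted libraries, against 4175, 5981 and 4565 TPM in fed libraries. Every fasted library lay below every fed one (log2 fold change -0.49 with SE 0.12, and adjusted p = 0.42 by limma). The proton-pumping membrane subunits mt-Nd2 (chrM:3914-4951), mt-Nd4 (chrM:10167-11544) and mt-Nd5 (chrM:11742-13565) differed in near proportion to it.

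mt-Nd2 averaged 2327 ± 94.3 TPM in fasted and 3400.0 ± 709.6 TPM in fed libraries (SD, n = 3 each; log2 fold change -0.53). mt-Nd4 averaged 3430 ± 178.0 TPM in fasted and 4850.1 ± 922.7 TPM in fed libraries (SD, n = 3 each; log2 fold change -0.48). mt-Nd5 averaged 1432 ± 74.1 TPM in fasted and 2026 ± 364.2 TPM in fed libraries (SD, n = 3 each; log2 fold change -0.49). None of these overlapped between the diets.

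mt-Nd6 (chrM:13552-14070) is the one mRNA on the minus strand, and in human cells its transcript is known to lack a stable poly(A) tail. It was at 64.4, 77.2 and 86.4 TPM in fasted libraries, against 85.5, 142.7 and 100.6 TPM in fed libraries, far below every other mitochondrial mRNA. The groups overlapped slightly, with fasted replicate 3 just above fed replicate 1 (log2 fold change -0.50, standard error 0.18). No source used here says whether counting used strand, so reads of mt-Nd6 and of transcripts antisense to it cannot be told apart.

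mt-Nd3 and mt-Nd4l, small membrane subunits of complex I, departed from this pattern in their raw values. mt-Nd3 (chrM:9459-9806) had the largest difference of the 13, at 1233, 822 and 1220 TPM in fasted libraries, against 1803, 2538 and 2583 TPM in fed libraries (log2 fold change -1.08 with SE 0.19, and adjusted p = 0.41 by limma). Its copy Gm28438 was higher on average in fasted libraries, with overlap, at 720.7, 1241 and 619 TPM in fasted libraries, against 439.5, 665 and 91.3 TPM in fed libraries. The copy thus received 36.9%, 60.1% and 33.7% of the pair's TPM in fasted libraries, against 19.6%, 20.8% and 3.41% in fed libraries, without overlap between the diets.

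Summed over the pair, mt-Nd3 was at 1954, 2063 and 1839 TPM in fasted libraries, against 2243, 3203 and 2675 TPM in fed libraries. The log2 fold change of the sum was -0.46 with a standard error of 0.12 (limma, adjusted p = 0.41), close to the other complex I genes. For mt-Nd4l (chrM:9877-10173) the copy Gm10222 took 33.0%, 26.7% and 36.4% of the pair in fasted libraries, against 43.9%, 2.85% and 0% in fed libraries. By symbol alone mt-Nd4l had a log2 fold change of -0.66 (SE 0.30), and the groups overlapped. With Gm10222 added it was -0.39 with a standard error of 0.12, at 3001, 3212 and 3075 TPM in fasted libraries, against 3481, 4923 and 3883 TPM in fed libraries, without overlap.

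**Figure D3:**
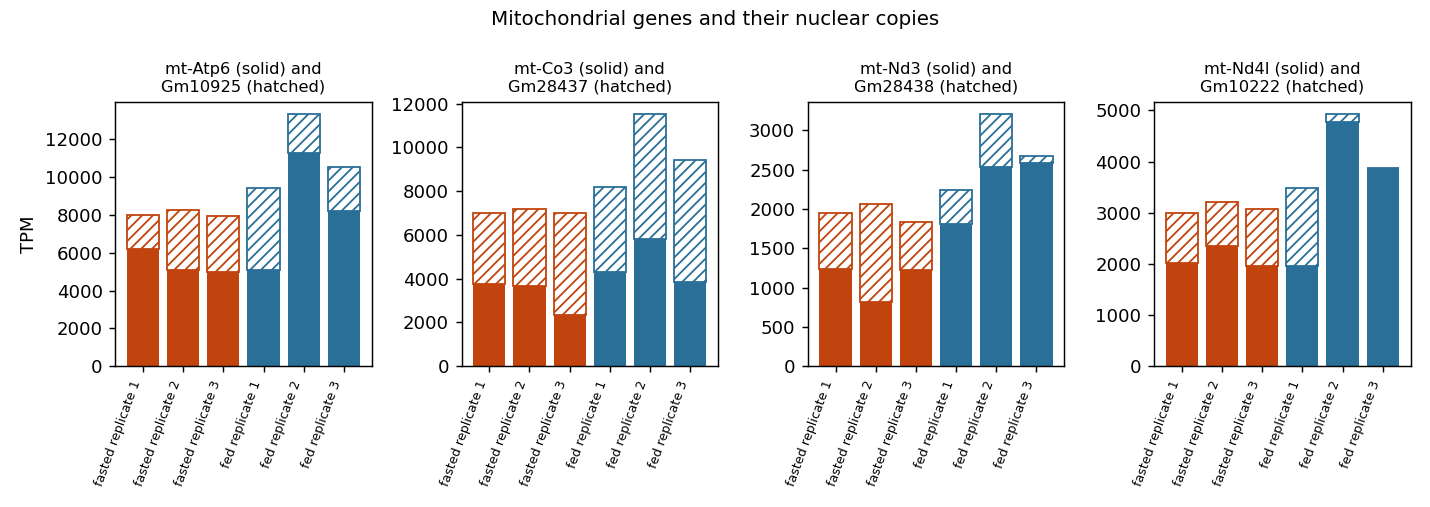
TPM of mt-Atp6, mt-Co3, mt-Nd3 and mt-Nd4l (solid) with their nuclear copies Gm10925, Gm28437, Gm28438 and Gm10222 stacked on top (hatched), 1 bar for each library. The solid parts vary between libraries of 1 diet, while the full bars are even among fasted libraries (mt-Nd3 pair 1839 to 2063 TPM) and all lie below the fed ones (2243 to 3203 TPM).

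mt-Cytb (chrM:14145-15288) codes for cytochrome b, the only mitochondrial subunit of complex III, which passes electrons to cytochrome c. It was at 4297, 4513 and 4207 TPM in fasted libraries, against 5043, 7359.9 and 5791 TPM in fed libraries. The groups did not overlap (log2 fold change -0.47 with SE 0.13, and adjusted p = 0.42 by limma). None of the 7 copies matched mt-Cytb, so this value is the same with and without them.

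Complex IV, cytochrome c oxidase, hands electrons to oxygen, and its 3 mitochondrial subunits form its catalytic core. mt-Co2 (chrM:7013-7696) was at 8203, 8727 and 8120.0 TPM in fasted libraries, against 9114, 14741 and 10492 TPM in fed libraries (log2 fold change -0.43, standard error 0.16). mt-Co1 (chrM:5328-6872), the subunit with the oxygen-binding site, was at 7801, 8175 and 7627 TPM in fasted libraries, against 8734, 12792 and 10345 TPM in fed libraries (log2 fold change -0.42, standard error 0.13). Neither overlapped, and the copies carried little of them, since Gm28661 was listed at 0 TPM in all 6 libraries and Gm29216 held at most 2.91% of its pair.

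mt-Co3 (chrM:8607-9390), which stabilises the core, was at 3773, 3639 and 2342 TPM in fasted libraries, against 4317, 5820.0 and 3846 TPM in fed libraries. About as much was listed for its copy Gm28437, at 46.0%, 49.4% and 66.6% of the pair in fasted libraries, against 47.2%, 49.4% and 59.1% in fed libraries. The pair together was at 6993, 7186 and 7003 TPM in fasted libraries, against 8177, 11503 and 9403 TPM in fed libraries. Adding the copy brought the log2 fold change to -0.44 (standard error 0.11), against -0.53 (standard error 0.21) by symbol alone.

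Complex V is ATP synthase, and its mitochondrial subunits mt-Atp8 and mt-Atp6 sit in the membrane part that the protons cross. mt-Atp8 (chrM:7766-7969) had the smallest difference of the 13, at 6664, 6932 and 6553 TPM in fasted libraries, against 7327, 10707 and 8331 TPM in fed libraries (log2 fold change -0.37 with SE 0.13, and adjusted p = 0.48 by limma). mt-Atp6 (chrM:7927-8607) overlapped between the diets by symbol alone, at 6223, 5092 and 4998 TPM in fasted libraries, against 5079, 11263 and 8203 TPM in fed libraries. With Gm10925, which held 22.2% to 38.5% of the pair in fasted and 15.4% to 46.0% in fed libraries, it no longer did. The pair was at 7995, 8274 and 7926 TPM in fasted libraries, against 9406, 13320 and 10558 TPM in fed libraries (log2 fold change -0.44, standard error 0.12).

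With all 7 copies added to their genes, the 13 mRNAs had log2 fold changes between -0.53 (mt-Nd2) and -0.37 (mt-Atp8), against a span of -1.08 (mt-Nd3) to -0.37 (mt-Atp8) by symbol alone. All 13 then had p under 0.05 in the lower direction (limma, unadjusted), beside 3.25% of all tested genes, and 12 did not overlap, beside 5.08%. Their shares in the summed mRNA varied by a median of only 2.53% over the libraries, so these counts are not 13 separate results. With adjustment over 15091 genes 0 of the 13 passed (limma, adjusted p from 0.41 to 0.49), beside 0.00663% of all. Leaving out fed replicate 2 as well gave log2 fold changes from -0.37 (mt-Nd2) to -0.22 (mt-Atp8), with a median of -0.31. There 12 of 13 had p under 0.05 in the lower direction (limma, unadjusted, against 2.55% of all tested genes), the exception being mt-Nd6. The 12 genes without overlap in the full set could not come to overlap here. Of all tested genes, 8.41% lay wholly below fed values in this setting.

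**Figure D4:**
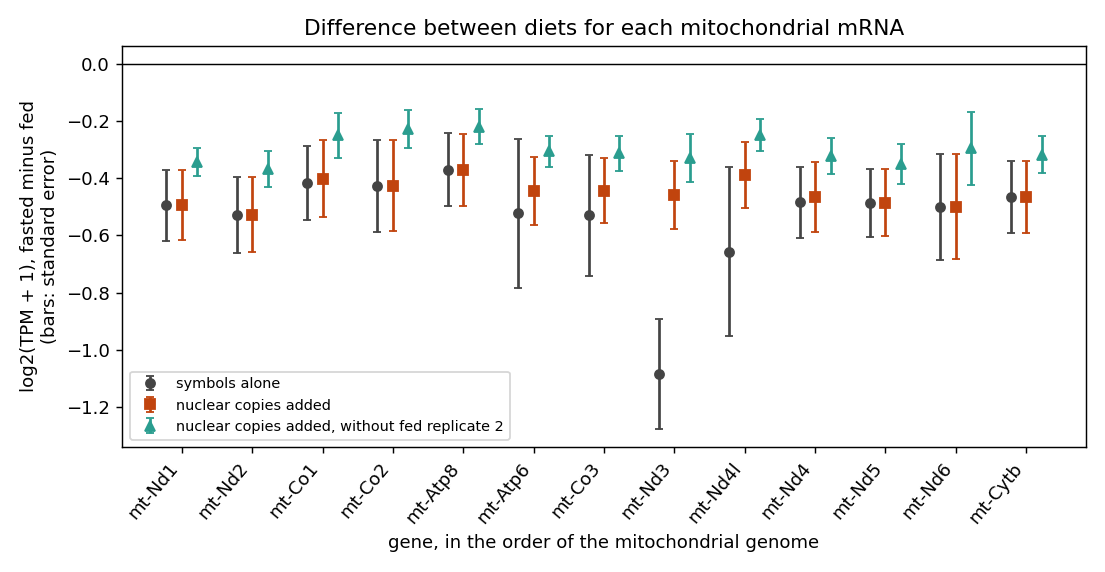
Log2 fold change, fasted minus fed, for each mitochondrial mRNA in genome order by symbol alone, with nuclear copies added, and with copies added but without fed replicate 2. Bars are standard errors. The point for mt-Nd3 by symbol alone, at -1.08, returns to -0.46 among the others when Gm28438 is added, and all points shift towards 0 without fed replicate 2.

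The proportions among the mRNAs varied less once the copies were added. The coefficient of variation over the 6 libraries of a gene's share in the summed mitochondrial mRNA had a median of 2.53% with the copies, against 4.08% by symbol alone, and mt-Nd3 had the highest by symbol alone, at 27.2%. With the copies mt-Nd6, the lowest in level, had the highest, at 10.7%. Small differences between the diets were left, since 5 of the 13 shares did not overlap. The share of mt-Atp8 was higher in fasted libraries (11.45% to 11.57% in fasted, 10.95% to 11.04% in fed libraries), and the mean shares of mt-Nd1 (5.90% in fasted, 6.14% in fed), mt-Nd2 (3.98% in fasted, 4.25% in fed), mt-Nd4 (5.96% in fasted, 6.09% in fed) and mt-Cytb (7.43% in fasted, 7.59% in fed) were lower. mt-Nd4l and mt-Nd4 are known to share 1 mRNA, and their TPM ratio ranged from 0.48 to 0.84 by symbol alone. With the copies it was 0.89, 0.89 and 0.90 in fasted libraries, against 0.85, 0.84 and 0.84 in fed libraries. For mt-Atp8 over mt-Atp6, also on a shared mRNA, it was 0.83, 0.84 and 0.83 in fasted libraries, against 0.78, 0.80 and 0.79 in fed libraries. Both ratios were thus slightly higher in fasted libraries without overlap, while mt-Atp6 over mt-Co3 (1.13 to 1.15 in fasted, 1.12 to 1.16 in fed libraries) overlapped.

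The levels themselves, with copies added, ran from mt-Co2 (8350.1 ± 329.0 TPM in fasted, 11449 ± 2933 TPM in fed libraries; SD, n = 3 each) down to mt-Nd6, given above. mt-Co2, mt-Atp6 and mt-Co1 were the highest. mt-Co2 exceeded mt-Co1 in all 6 libraries, while mt-Atp6 was not separable from either, below mt-Co2 in 4 of 6 and above mt-Co1 in 5 of 6. Next came mt-Co3, mt-Atp8 and mt-Cytb, then mt-Nd1 and mt-Nd4, which changed places in 3 of 6 libraries. mt-Nd4l, mt-Nd2, mt-Nd3, mt-Nd5 and mt-Nd6 followed in that order in all 6 libraries.

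The rRNAs of the mitochondrial ribosome differed between diets less evenly than the mRNAs. mt-Rnr2 (16S, chrM:1094-2675) was at 527, 555 and 526 TPM in fasted libraries, against 553, 851 and 709 TPM in fed libraries (log2 fold change -0.37 with SE 0.14, and adjusted p = 0.49 by limma). mt-Rnr1 (12S, chrM:70-1024) was at 380.3, 402 and 369 TPM in fasted libraries, against 314, 489 and 436 TPM in fed libraries. The fitted log2 difference was -0.08 ± 0.15 (standard error; limma, adjusted p = 0.84), and 0.05 without fed replicate 2. Both overlapped between the diets, but their ratio did not: mt-Rnr1 over mt-Rnr2 was 0.72, 0.72 and 0.70 in fasted libraries, against 0.57, 0.57 and 0.62 in fed libraries. Mature rRNAs carry at most very short tails, so selection on poly(A) captures an unknown part of them.

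Of the 22 tRNA genes, 20 were listed at 0 TPM in every library. mt-Tl1 (a leucine tRNA, chrM:2676-2750) was listed at 4.54 TPM and mt-Tm (the methionine tRNA, chrM:3845-3913) at 5.19 TPM, both in fed replicate 2 and at 0 in the other 5 libraries. These were named after their values were seen. Both genes flank mRNAs or rRNAs without a gap, and at 75 and 69 bases are short of a usual library fragment, as their sequences show.
mt-Tl1: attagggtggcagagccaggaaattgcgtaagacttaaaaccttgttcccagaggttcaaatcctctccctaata
mt-Tm: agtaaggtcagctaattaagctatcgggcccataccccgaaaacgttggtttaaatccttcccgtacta

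The nuclear genes for the same complexes lay close to the median of all genes. Of 71 nuclear subunits of complexes I, III, IV and V, 1 was lower and 4 were higher in fasted libraries with p under 0.05 (limma, unadjusted; 3.22% and 6.72% of all tested genes), and 0 passed with adjustment. Their median log2 fold change was 0.02, within -0.15 to 0.14. The smallest p per complex belonged to Ndufc2 (298.7 ± 10.5 TPM in fasted, 273.6 ± 7.53 TPM in fed libraries), Uqcrc2 (215.7 ± 7.35 TPM in fasted, 199.9 ± 8.49 TPM in fed libraries), Cox7a2 (445.8 ± 28.3 TPM in fasted, 475.5 ± 10.3 TPM in fed libraries) and Atp5b (1826 ± 105.1 TPM in fasted, 1659 ± 78.3 TPM in fed libraries), all SD with n = 3 each. By log2 fold change, not by level, even the lowest of the 71, at -0.15, lay above every mitochondrial mRNA (highest -0.37, mt-Atp8). Under quantile normalization the highest mitochondrial value was -0.03 (mt-Co1), with a median of -0.35. The nuclear range in that setting is not given here, so the gap was not tested there.

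**Figure D5:**
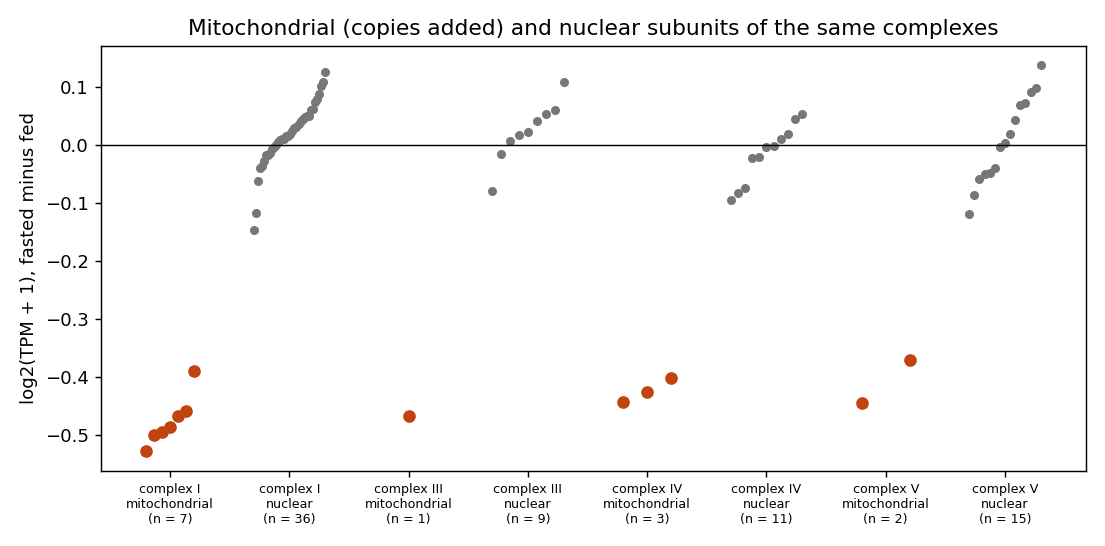
Log2 fold change, fasted minus fed, of mitochondrial mRNAs with copies added (orange) and of nuclear subunits (grey) for complexes I, III, IV and V, 1 point per gene. Mitochondrial points lie between -0.53 and -0.37, nuclear points between -0.15 and 0.14.

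Genes that maintain and express mitochondrial DNA had small fold changes, but more were higher than lower in fasted libraries. Of the 50, 39 were higher and 11 lower, where 37.5% of all tested genes were lower. Their sum was higher without overlap (1725 to 1756 TPM in fasted, 1646 to 1703 TPM in fed libraries). Of 50 such genes, 6 were higher and 0 lower in fasted libraries with p under 0.05 (limma, unadjusted), where 6.72% of all tested genes were higher, 3.22% lower and 9.94% either. The count was 4 when TPM was scaled to the total outside the mitochondrial genome, and 0 passed with adjustment. Tfam, which packages mitochondrial DNA and starts its transcription, was at 24.9, 28.3 and 27.9 TPM in fasted libraries, against 23.1, 21.8 and 19.2 TPM in fed libraries (log2 fold change 0.33 with SE 0.08, and adjusted p = 0.42 by limma). Tfb2m, a partner of the mitochondrial RNA polymerase, was at 29.9, 27.1 and 28.1 TPM in fasted libraries, against 26.1, 21.4 and 25.1 TPM in fed libraries (log2 fold change 0.22). Neither overlapped between the diets, but both were named for a small p among the 50, a choice that favours genes without overlap. The share of all tested genes with fasted values wholly above fed values is not reported here.

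The other 4 were Mterf2, a transcription factor of mitochondria (log2 fold change 0.21), the translation elongation factors Tsfm (0.15) and Gfm1 (0.13), and Fastkd1, of a family of mitochondrial RNA-binding proteins (0.15). The list had a median log2 fold change of 0.05, beside 0.03 for all tested genes. Of 78 mitochondrial ribosomal protein genes, 5 were higher and 3 lower with p under 0.05 (limma, unadjusted), near the 6.72% and 3.22% of all tested genes, with a median of 0.03. Of 20 genes for other mitochondrial proteins, such as Cs, Vdac1 and Tomm20, 2 were higher with p under 0.05 (limma, unadjusted; 6.72% of all tested genes), with a median of 0.06, and 0 passed with adjustment in either list. The sum of the 78 ribosomal protein genes overlapped between the diets. Of the 20 other genes, 19 were higher and 1 lower, where 37.5% of all tested genes were lower. Their sum did not overlap (5286 to 5409 TPM in fasted, 5066 to 5260 TPM in fed libraries). The 4 nuclear genes of complex II, which has no mitochondrial subunit, had a median of 0.03, and 0 of them had p under 0.05 (limma, unadjusted). All 4 were higher, and their sum did not overlap (845.0 to 845.4 TPM in fasted, 806 to 829 TPM in fed libraries). With TPM scaled to the total outside the mitochondrial genome, 49.6% of all tested genes were lower, with a median of 0.00079. How these sums stood under that scaling was not tested.

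Marker lists describe the cells behind these libraries. Sensory neuron markers summed to between 24913 and 26011 TPM in fasted and between 23655 and 25817 TPM in fed libraries, led by Nefl, with all 17 detected. Of all tested genes, 37.5% were lower in fasted libraries, 3.22% were lower with p under 0.05 (limma, unadjusted), and 5.07% lay wholly below fed values. Macrophage markers, led by Lyz2, were lower for 18 of 18 tested genes, 11 of them with p under 0.05 (limma, unadjusted). Their sums did not overlap (133 to 153 TPM in fasted, 182 to 214 TPM in fed libraries). Endothelial markers, led by Egfl7, were lower for 15 of 16, 9 of them with p under 0.05 (limma, unadjusted). Their sums did not overlap either (237 to 257 TPM in fasted, 275 to 329 TPM in fed libraries). Muscle markers, led by Pvalb, which proprioceptive neurons express too, were lower for 24 of 25, but only 2 had p under 0.05 (limma, unadjusted). Their median log2 fold change was -1.51, and -0.67 without fed replicate 2, although their sums overlapped. The fibroblast sum, led by Apod, was lower without overlap (1727 to 1885 TPM in fasted, 1927 to 1995 TPM in fed libraries), but 5 of 10 genes were lower and 5 higher. Erythrocyte markers, led by Hbb-bs, were higher without overlap (1747 to 3317 TPM in fasted, 1313 to 1594 TPM in fed libraries). All 7 tested were higher, 6 of them with p under 0.05 (limma, unadjusted; 6.72% of all tested genes). The sums of satellite glia (Apoe), adipocyte (Fabp4) and immediate early (Jund) genes overlapped. The part of these cells in the mitochondrial difference was not tested.

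Among 11513 genes outside the mitochondrial genome averaging 5 TPM or more, those whose log2(TPM + 1) ran most like the summed mitochondrial mRNA over the 6 libraries were Eva1b (Pearson r = 0.98), Coq10a, Afg3l1, Pacsin3 and Col15a1 (r = 0.97 each). Coq10a and Afg3l1 code for mitochondrial proteins, and Col15a1 for a collagen. With 6 libraries, 18 genes had r over 0.95, and the 5 named are all highest in fed replicate 2. Coq10a, for example, was at 53.6, 54.0 and 51.5 TPM in fasted libraries, against 53.3, 60.5 and 56.1 TPM in fed libraries.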

How the data were processed

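The authors deposited TPM for each transcript, and every one of the 6 libraries sums to 1000000. The submitters' processing notes name Salmon 1.6.0, Trim Galore 0.6.6, DESeq2 1.34.0, FastQC 0.11.9 and the builds GRCm38 and mm10; their roles and the annotation release are not given in the sources used here. TPM keep no depth, so depth is unknown and counting error cannot be given. TPM also sum to a fixed total, so a lower share of some genes raises the others.

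TPM was summed by gene symbol. The 15097 genes averaging 1 TPM or more were compared as log2(TPM + 1) with limma 3.58.1 in R 4.3.3 (group as the only term, trended empirical Bayes, two-sided, Benjamini-Hochberg over all tested genes). Fold changes are on the log2(TPM + 1) scale and understate those of low genes. Sums were compared by exact permutation. The members and lists were chosen with earlier results of these data known. Coordinates and sequences came from GENCODE release M21 (GRCm38), which held 98.7% of the deposited transcripts. Nuclear copies are transcripts outside the mitochondrial genome with at least 50% of their 31-base words in a mitochondrial transcript, and their TPM was added to the best match. The lengths of Gm28439 and Gm29216 differ from those of mt-Nd4 and mt-Co1, so their sums are approximate. Genes named are all mitochondrial mRNAs and rRNAs, up to 6 copies by mean TPM, the 6 genes of mitochondrial DNA maintenance and 1 nuclear subunit per complex with the smallest p, the highest gene of each marker list given (1 list is not reported here), and the 5 of most like pattern. Gm28661, Ckm, mt-Tl1, mt-Tm and the genes named as examples of other mitochondrial proteins fall outside this rule. The fit was tested on simulated data. Alternatives were other pseudocounts, filters, scalings, weights, variance models, a replicate block, nuclear copies added and each library left out; copies added with each library left out was chosen after seeing the data.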

Additional observations from a re-analysis of the deposited data

How the results depend on the processing

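All 13 mitochondrial mRNAs were lower in fasted libraries and 0 passed an adjusted p of 0.05 (limma) under every alternative tried. The count with p under 0.05 in the lower direction (limma, unadjusted; 11 of 13) was 7 without a filter on low values and 7 under quantile normalization, which fixes the values at each rank, and 8 to 12 with 1 library left out. The log2 difference of the summed mRNA was -0.25 under quantile normalization, and that of complex IV -0.12; the cause was not tested. With 1 library left out the median of the 13 ran from -0.60 to -0.34, the summed mRNA from -0.64 to -0.31, and with copies added from -0.56 to -0.28. The log2 fold change of mt-Rnr1 ran from -0.27 to 0.051 with 1 library left out, and was positive, at 0.051, without fed replicate 2, with or without the copies; the cause was not tested. Of the genes that maintain and express mitochondrial DNA, 3 to 6 had p under 0.05 with 1 library left out, the fewest without fasted replicate 3. Summed tRNA rested on fed replicate 2, and without it was 0. Labels tie no replicate number to a shared litter or day, and same-numbered libraries correlated by 0.09, 0.11 and 0.07 in their deviations from group means, each library best with its own number, as a hint from the data; with a replicate block the count was 12 of 13 and 0 passed with adjustment. Depth is unknown, so the precision of low values such as the tRNAs cannot be given.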
